A study of Mus musculus with 17 samples.

Results

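The 10 genes described here encode integrin subunits: *Itgam*, *Itgax*, *Itgb2*, *Itgb1*, *Itga5*, *Itgav*, *Itgb5*, *Itga11*, *Itga7* and *Itga6*. They are a fixed set of names, with no threshold on a value, in a table of 31647 features, which held 26 integrin subunits in all. RNA was sequenced from the 3′ ends of transcripts in hearts of 17 mice. All of them were wild-type male C57BL/6J mice, operated on at 8 to 11 weeks of age and examined 5 days later. In 9 mice the left anterior descending coronary artery (LAD) had been ligated permanently, which produces a myocardial infarction (MI) without reperfusion, and RNA came from the infarct zone (IZ). The remaining 8 mice had the same operation without the ligature, and RNA came from left ventricular (LV) tissue. The groups therefore differed in the ligation and in the part of the ventricle that was sampled, which cannot be told apart.

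Integrins are receptors of an α and a β chain that together span the cell membrane. Outside the cell they hold on to matrix proteins or to receptors of other cells, and inside they are coupled to the actin cytoskeleton through talin, kindlin and vinculin. The α chain largely decides the ligand. After an infarction, leukocytes use β2 integrins to leave the blood and to take up debris, while fibroblasts and myofibroblasts use β1 and αv integrins to bind fibronectin, collagen and matricellular proteins of the young scar. Healthy cardiomyocytes are tied to their laminin-rich basement membrane, with α7β1 as the main receptor.

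The libraries held 1237675 to 4738307 counts, each count being 1 molecule read at its 3′ end. Levels are given as CPM, counts per 1e6 of an effective library size by TMM (the trimmed mean of M values), a scaling that sets the bulk of genes equal between libraries. IZ replicate 1 stood apart from the others of its group. Mitochondrially encoded transcripts took 19.5% of its counts, against 4.22 to 6.78% in the other 8 IZ libraries and 22.9 to 32.4% in sham. Its 10 cardiomyocyte markers summed to 29260 CPM, against 3067 to 7201 CPM in the other IZ libraries and 63424 to 76976 CPM in sham. Where a result turned on this library, its value without it is also given.

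Of the 7 members with an entry in the RefSeq promoter table (GRCm38.p6), the bases before the transcription start are shown for 5. *Itgam* and *Itgax* are shown because they are neighbours on chromosome 7, read in the same direction with 11055 bases between them, and both rose. *Itgav* and *Itgb5* are shown because their products pair as αvβ5, and *Itga11* because it had the largest fold change among the matrix receptors. Capitals mark matches, on the minus strand as the reverse complement, to motifs that were searched on both strands of the 250 bases upstream: GAGGAAG (PU.1, a myeloid transcription factor), TGANTCA (AP-1), GGGCGG (the GC box bound by Sp1) and GGAATG (TEAD). The windows are chr7:128062390-128062639 (plus strand) for *Itgam*, chr7:128129300-128129549 (plus) for *Itgax*, chr2:83724147-83724396 (plus) for *Itgav*, chr16:33829415-33829664 (plus) for *Itgb5* and chr9:62677605-62677854 (plus) for *Itga11*.
Itgam: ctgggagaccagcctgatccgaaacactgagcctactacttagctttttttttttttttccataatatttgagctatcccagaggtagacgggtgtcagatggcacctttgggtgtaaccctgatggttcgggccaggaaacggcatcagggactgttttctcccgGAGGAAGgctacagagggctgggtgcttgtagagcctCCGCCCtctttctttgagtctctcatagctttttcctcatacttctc
Itgax: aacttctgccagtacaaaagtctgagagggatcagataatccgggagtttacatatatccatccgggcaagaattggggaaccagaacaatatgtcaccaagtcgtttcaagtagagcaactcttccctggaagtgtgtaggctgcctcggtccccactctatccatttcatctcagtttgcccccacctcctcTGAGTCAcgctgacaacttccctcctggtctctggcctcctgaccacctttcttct
Itgav: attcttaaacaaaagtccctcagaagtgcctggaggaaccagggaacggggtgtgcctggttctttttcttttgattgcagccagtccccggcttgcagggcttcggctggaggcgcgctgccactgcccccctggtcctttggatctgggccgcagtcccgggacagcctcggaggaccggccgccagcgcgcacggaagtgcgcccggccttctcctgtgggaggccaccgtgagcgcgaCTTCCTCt
Itgb5: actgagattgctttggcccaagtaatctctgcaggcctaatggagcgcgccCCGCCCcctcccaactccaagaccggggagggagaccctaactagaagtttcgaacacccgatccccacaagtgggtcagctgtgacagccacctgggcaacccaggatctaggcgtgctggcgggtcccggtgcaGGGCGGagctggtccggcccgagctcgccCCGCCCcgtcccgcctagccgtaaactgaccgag
Itga11: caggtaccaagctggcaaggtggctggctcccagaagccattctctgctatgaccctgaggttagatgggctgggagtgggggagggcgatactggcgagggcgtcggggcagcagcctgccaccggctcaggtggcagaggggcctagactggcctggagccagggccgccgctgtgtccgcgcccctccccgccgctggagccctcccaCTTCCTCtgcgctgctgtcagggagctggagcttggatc

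Positions count from the first base of a match, as printed, to the start. In *Itgam* the PU.1 match began 84 bases before the start on the plus strand, and a GC box lay 47 bases before it on the minus strand. The *Itgax* window held no PU.1 match but an AP-1 match at 56 bases. PU.1 letters were also found on the minus strand of *Itgav* at 8 bases and of *Itga11* at 39 bases, so the match was not limited to the leukocyte subunits. *Itgb5* had GC boxes at 199, 63 and 34 bases. Of the windows not shown, *Itgb1* held a GC box at 151 bases and a TEAD match at 7 bases, and *Itga5* held GC boxes at 149 and 6 bases. No matches overlapped each other. Among all 32851 promoters of the table, windows of the same length held the PU.1 letters in 10.6%, AP-1 in 6.75%, the GC box in 32.7% and TEAD in 12.6%. These matches describe the sequence only and do not show that a factor was bound.

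All 10 integrin subunits passed the filter on low counts and were tested with all other genes by the quasi-likelihood F-test of edgeR, with Benjamini-Hochberg adjustment. However, *Itgam*, *Itgax*, *Itgb2* and *Itga11* were low in sham and passed the filter only through the IZ libraries, where they were high. Their direction is therefore not a result, although they enter the counts and the median below. In the IZ 5d post-MI, 9 of the 10 subunits were higher and 1, *Itga7*, was lower than in sham. This has to be read against the whole table, in which 36.3% of the 12301 tested genes were higher and 33.1% were lower, 69.5% together. The median log2 fold change was 1.73 over the 10 subunits and 0.05 over all tested genes. Every IZ library lay above every sham library for 8 of the subunits, which held for 16.6% of all tested genes. At least 2-fold changes were found for 7 of the 9 higher subunits, all but *Itgb1* and *Itga6*, and for *Itga7*; of all tested genes, 19.3% were called and at least 2-fold higher and 18.3% called and at least 2-fold lower. For *Itga7* every IZ library lay below every sham library, as for 16.5% of all tested genes. In bulk tissue, fewer cells of a type and less RNA per cell cannot be told apart, nor can more cells and more RNA per cell.

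**Figure D1:**
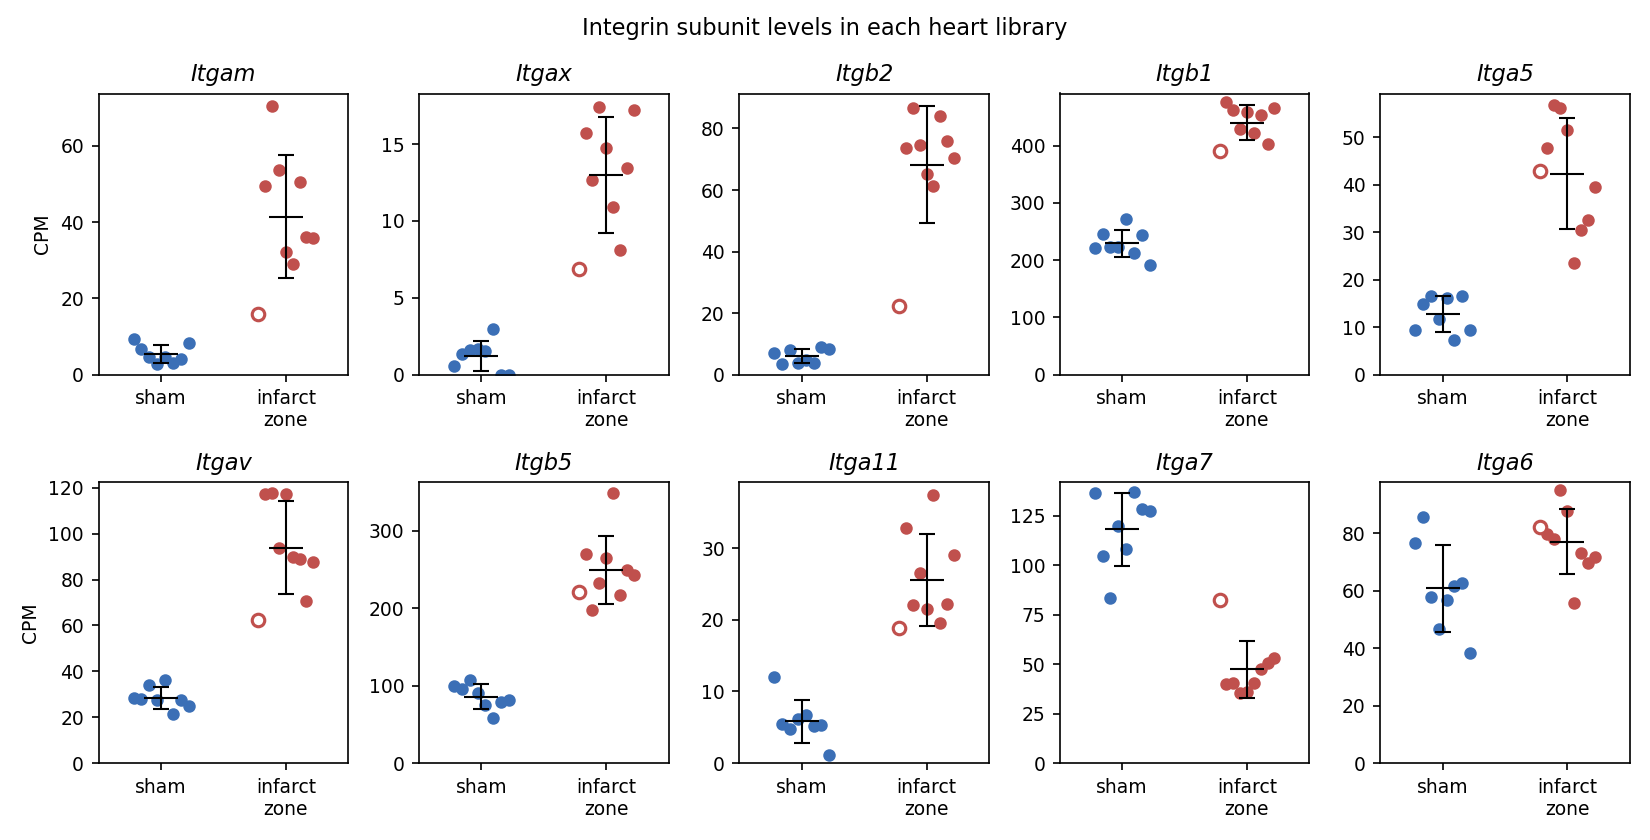
Level of each of the 10 integrin subunits (CPM, linear axes starting at 0) in 8 sham and 9 infarct zone libraries. Points are libraries, the open circle is IZ replicate 1, and bars give the mean and SD; the groups are apart in every panel except *Itga6*, where 2 of 9 IZ libraries lie above all sham libraries.

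The leukocyte subunits had the largest fitted fold changes of the 10. They passed the filter only through the IZ libraries, so neither this rank nor their direction is a result. *Itgb2* (chr10:77530252-77565708), the β2 chain shared by the leukocyte integrins, ranged from 3.39 to 8.86 CPM in sham with a median of 5.89. In the IZ it ranged from 22.5 to 86.5 CPM with a median of 73.8. The groups did not overlap, and the lowest IZ value by far was that of replicate 1, the others reaching at least 61.4 CPM. The mean rose from 5.98 ± 2.30 CPM (SD, n = 8) to 68.2 ± 18.9 CPM (SD, n = 9), a log2 fold change of 3.47 ± 0.25 (SE, edgeR adjusted p = 3.60e-11), or 11.1-fold. With 5 to 23 counts per sham library, *Itgb2* passed the filter on low counts only through the IZ libraries.

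*Itgam* (chr7:128062640-128118491) encodes αM, which with β2 forms Mac-1, a receptor of neutrophils, monocytes and macrophages for complement fragments, ICAM-1 and fibrinogen. Sham libraries held 2.79 to 9.31 CPM with a median of 4.70, and IZ libraries 15.9 to 70.4 CPM with a median of 36.1. Replicate 1 was again the lowest in the IZ, and it still lay above all sham libraries. The log2 fold change was 2.93 ± 0.28 (SE, edgeR adjusted p = 4.01e-09), or 7.60-fold. With 4 to 17 counts per sham library, *Itgam* passed the filter on low counts only through the IZ libraries. *Itgam* was counted in a feature merged with *Gm49368*, a gene model on the same strand that shares exons with it, so the value covers both.

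*Itgax* (chr7:128129547-128150657) encodes αX, the β2 partner found on dendritic cells and on many macrophages. Its sham libraries held only 0 to 4 counts, or 0 to 2.94 CPM, with 2 libraries at 0. The IZ libraries held 15 to 113 counts, or 6.89 to 17.4 CPM with a median of 13.4. The groups did not overlap, and the fitted log2 fold change was 3.55 ± 0.38 (SE, edgeR adjusted p = 1.78e-08). With so few counts in sham its size depended on the method and ran from 2.69 to 4.62 over the alternatives tried, always past the test. It passed the filter on low counts only through the IZ libraries.

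Markers of macrophages and monocytes moved with these subunits. All 10 of the listed markers were higher, and their sum rose from 362 to 530 CPM in sham to 1992 to 5269 CPM in the IZ, where replicate 1 was the lowest and the other 8 libraries began at 3540 CPM. *Cd68*, a lysosomal glycoprotein of macrophages, had the largest change of the list (4.09 ± 0.21 on the log2 scale) and *Mertk*, a receptor for dying cells, the smallest (2.01 ± 0.26). Of these markers, *Cd14*, *Fcgr1*, *Mertk*, *Cx3cr1* and *Ccr2* were low in sham and passed the filter only through the IZ libraries. The direction of these is therefore not a result. Neutrophil markers were few. Of 10, the 3 that passed the filter did so through the IZ libraries, where they were high, so their direction is not a result, and the others were too low to be tested. The list summed to 4.44 to 12.3 CPM in sham and to 15.2 to 211 CPM in the IZ, and *Ly6g* and *Mpo* had no count in sham. The part of neutrophils in the result was not tested.

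Set against the summed macrophage and monocyte markers of the same library, a ratio that does not depend on library scaling, the leukocyte subunits showed no called difference. The log2 ratio of *Itgb2* to these markers was -6.05 ± 0.47 in sham and -5.87 ± 0.32 in the IZ (SD, exact two-sided permutation p = 0.357, adjusted over 15 ratios 0.412). For *Itgam* the mean log2 ratio differed by -0.42 (exact permutation p = 0.107, adjusted 0.146), and for *Itgax* by -0.05 (p = 0.907 by exact permutation, also after adjustment). The sham ratios scattered widely at these low counts, so the data do not show that the subunits and the marker sum rose alike. The marker sum was mostly *Lyz2* (lysozyme), at a mean of 259 CPM in sham and 2742 CPM in the IZ. With 5 instead of 1 added to the counts, *Itgax* and *Itgam* were lower relative to the markers by a called difference, -1.32 (adjusted exact p = 2.06e-04) and -0.88 (adjusted exact p = 0.00199). Thinning all libraries to the same depth gave called differences of -0.99 and -0.57 for the same ratios.

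**Figure D2:**
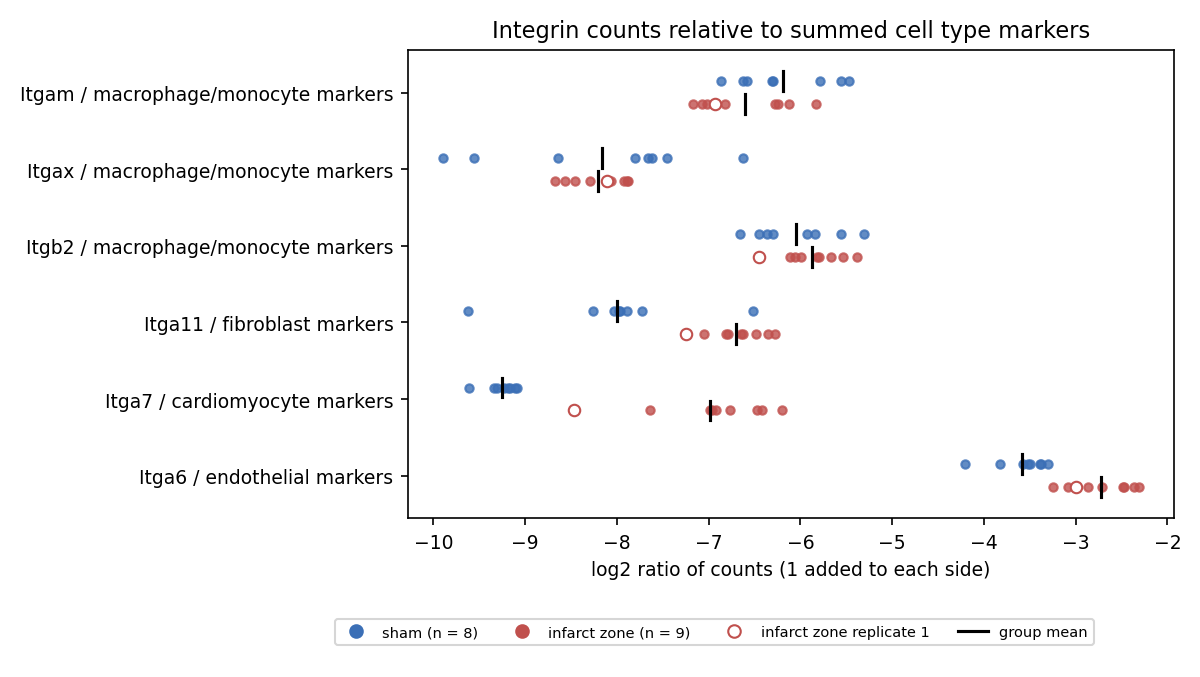
Log2 ratio of integrin counts to the summed counts of cell type markers in the same library (1 added to each side) for 8 sham and 9 infarct zone libraries. Points are libraries, the open circle is IZ replicate 1 and black strokes are group means; *Itga7* and *Itga6* lie higher in all 9 IZ libraries than in any sham library, while the 3 leukocyte subunits overlap between the groups.

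The ratios of *Itgam* and *Itgax* to their β partner *Itgb2* rested on few counts in sham and depended on the method. The log2 ratio of *Itgam* to *Itgb2* was lower in the IZ by 0.60, at -0.14 ± 0.59 in sham and -0.74 ± 0.29 in the IZ (exact permutation p = 0.0137, adjusted 0.0206). This call was lost when libraries were thinned to the same depth (-0.41, adjusted exact p = 0.101). The ratio of *Itgax* to *Itgb2* differed by -0.23 (exact permutation p = 0.679), but by -1.06 with 5 added to the counts (adjusted exact p = 0.00648) and by 0.03 without sham replicate 6. Across the 9 IZ libraries, log2 CPM of *Itgam* and *Itgb2* were correlated (Pearson's r = 0.882, exact permutation p = 2.59e-04, adjusted over 6 relations 0.00155; Spearman's rho = 0.917, exact p = 0.00131). Without IZ replicates 1 and 3, the libraries farthest from the median, r was 0.795 and no longer called (exact p = 0.0282, adjusted 0.169), and without replicate 1 alone it was 0.864. *Itgax* and *Itgb2* gave r = 0.607 (exact p = 0.0889) and rho = 0.133 (exact p = 0.744), and r turned to -0.292 without replicate 1.

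The receptors for fibronectin and other RGD ligands, proteins that carry an arginine-glycine-aspartate motif, were represented by 4 of the 10 subunits, and all 4 were higher. *Itgb1* (chr8:128685654-128733200) encodes β1, the partner of most α chains in the heart. It ranged from 192 to 272 CPM in sham and from 391 to 477 CPM in the IZ, with medians of 223 and 453. The groups were well apart and the spread within each was narrow. The log2 fold change was 0.94 ± 0.11 (SE, edgeR adjusted p = 4.00e-08), a 1.92-fold rise of the mean from 229 ± 24.2 to 440 ± 30.1 CPM (SD, n = 8 and 9).

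*Itga5* (chr15:103344286-103366763, minus strand) encodes α5, which binds fibronectin together with β1. Its values were 7.35 to 16.6 CPM in sham with a median of 13.3, and 23.6 to 56.7 CPM in the IZ with a median of 42.8. All IZ libraries were higher than all sham libraries. *Itga5* rose 3.32-fold (log2 1.73 ± 0.20, edgeR adjusted p = 5.05e-08). Its ratio to *Itgb1* rose by 0.73 on the log2 scale (exact permutation p = 0.00185, adjusted 0.00309), and 7 of 9 IZ libraries exceeded all sham libraries in this ratio.

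*Itgav* (chr2:83724397-83806916) encodes αv, the chain common to the receptors for vitronectin, osteopontin, periostin and the latent form of TGF-β. Sham values lay between 21.3 and 36.2 CPM with a median of 27.6, and IZ values between 62.3 and 118 CPM with a median of 89.7. The lowest IZ library, replicate 1, was above the highest sham library. The log2 fold change was 1.73 ± 0.14 (SE, edgeR adjusted p = 3.35e-10), or 3.31-fold.

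*Itgb5* (chr16:33829665-33949338), the β5 partner of αv, ranged from 58.8 to 108 CPM in sham and from 197 to 349 CPM in the IZ, with medians of 86.0 and 243. Here IZ replicate 6 was the highest and the other 8 IZ libraries ended at 271 CPM. The log2 fold change was 1.54 ± 0.13 (SE, edgeR adjusted p = 8.42e-10), or 2.90-fold. The log2 ratio of *Itgav* to *Itgb5* was -1.57 ± 0.24 in sham and -1.42 ± 0.39 in the IZ, with no called difference (exact permutation p = 0.353, adjusted 0.412). In contrast, *Itgav* rose relative to *Itgb1* by 0.74 on the log2 scale, with all 9 IZ libraries above all sham libraries (exact permutation p = 8.23e-05, adjusted 2.47e-04). Within the IZ, *Itgav* and *Itgb5* levels showed no called relation (r = 0.065, exact p = 0.871; rho = 0.050, exact p = 0.912), with r = -0.127 without replicate 1, nor did *Itga5* and *Itgb1* (r = 0.344, exact p = 0.361; rho = 0.367, exact p = 0.336).

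*Itga11* (chr9:62677826-62783982) encodes α11, a β1 partner that binds fibrillar collagen on fibroblasts. Sham libraries ranged from 1.11 to 12.0 CPM with a median of 5.41, and IZ libraries from 18.8 to 37.4 CPM with a median of 22.2. The groups did not overlap, although sham replicate 1 lay above the other 7 sham libraries, which ended at 6.73 CPM, and sham replicate 8 held only 2 counts. The log2 fold change was 2.12 ± 0.24 (SE, edgeR adjusted p = 5.68e-08), or 4.35-fold. With 2 to 22 counts per sham library, *Itga11* passed the filter on low counts only through the IZ libraries. Relative to *Itgb1* it rose by 1.20 on the log2 scale (exact permutation p = 3.70e-04, adjusted 9.26e-04), with 4 of 9 IZ libraries above all sham libraries.

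Fibroblast markers also rose, with 7 of 10 higher, 1 lower and 2 not called, a median log2 fold change of 1.44, and sums of 1153 to 1822 CPM in sham and 2183 to 2948 CPM in the IZ. *Mfap5*, a microfibril protein, was the highest (2.75), and *Smoc2*, a matricellular protein, the lowest (-0.28). Relative to the sum of these markers, *Itga11* counts were 2.46-fold higher in the IZ (1.30 on the log2 scale, exact permutation p = 6.17e-04, adjusted 0.00116), although sham replicate 1 lay within the IZ range and only 3 of 9 IZ libraries exceeded it. With 5 added to the counts the difference was 0.84. The marker sum was mostly *Dcn* (decorin), at 864 CPM in sham and 886 CPM in the IZ and not called, while *Mfap5* (2.75) and *Pcolce*, an enhancer of procollagen processing (2.11), stood beside 2.12 for *Itga11* in log2 fold change. *Itga11* and *Itgb1* showed no called relation in the IZ (r = 0.260, exact p = 0.495; rho = 0.350, exact p = 0.359), and r was -0.023 without replicate 1.

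The laminin receptors went different ways. *Itga7* (chr10:128933818-128958282) encodes α7, the laminin receptor of cardiac and skeletal muscle. It ranged from 83.1 to 137 CPM in sham with a median of 124, and from 35.6 to 82.3 CPM in the IZ with a median of 40.7. IZ replicate 1 gave the value of 82.3 CPM, just under the lowest sham library, and the other 8 IZ libraries reached at most 53.1 CPM. *Itga7* fell 2.50-fold (log2 -1.32 ± 0.15, edgeR adjusted p = 5.42e-08), and without replicate 1 the log2 fold change was -1.50. Its ratio to *Itgb1* was 4.89-fold lower in the IZ, at -0.96 ± 0.32 in sham and -3.25 ± 0.44 in the IZ on the log2 scale, with all 9 IZ libraries below all sham libraries (exact permutation p = 4.11e-05, the smallest that the 24310 splits can give, adjusted 2.47e-04). Without replicate 1 the log2 difference in this ratio was -2.41. The exons of *Mettl7b* overlap the gene on the opposite strand.

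All 10 cardiomyocyte markers fell, with a median log2 fold change of -2.99, from -4.19 for *Tnni3* (cardiac troponin I) to -2.12 for *Actc1* (cardiac α-actin). Of the markers of mural cells, which include smooth muscle, 4 of 7 fell, 1 rose and 2 were not called, with sums of 515 to 753 CPM in sham and 255 to 510 CPM in the IZ. *Itga7* fell by less than the cardiomyocyte markers. Its counts relative to their sum were 4.83-fold higher in the IZ, in 9 of 9 libraries above all sham libraries (2.27 on the log2 scale, exact permutation p = 8.23e-05, adjusted 2.47e-04). Replicate 1 was nearest to sham in this ratio, and without it the log2 difference was 2.46.

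*Itga6* (chr2:71745616-71858416) encodes α6, the laminin receptor of endothelium and epithelium, which pairs with β1 or β4. Its ranges overlapped: 38.3 to 85.5 CPM in sham with a median of 59.8, and 55.9 to 95.02 CPM in the IZ with a median of 78.1. Only 2 of 9 IZ libraries lay above all sham libraries. The log2 fold change was small, 0.34 ± 0.14 (SE, edgeR adjusted p = 0.0299). The call was lost without any one of sham replicates 3, 4, 5 and 8 or IZ replicate 1, with log2 fold changes of 0.26 to 0.33 and adjusted p up to 0.0805 in edgeR. It had the largest adjusted p of the 10. Near-identical copies of a non-coding *Itga6* transcript end held more counts in sham than in the IZ. A split of reads with these copies would bear on this small change and on the *Itga6* ratios, and was not tested.

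Relative to *Itgb1*, *Itga6* was lower in the IZ by 0.58 on the log2 scale (exact permutation p = 5.35e-04, adjusted 0.00115), with 7 of 9 IZ libraries below all sham libraries. Relative to *Itga7* it was 3.26-fold higher: the log2 ratio moved from -0.97 ± 0.45 in sham to 0.73 ± 0.46 in the IZ (SD), where every library was above every sham library (exact permutation p = 4.11e-05, adjusted 2.47e-04). In IZ replicate 1 the counts of *Itga6* and *Itga7* were equal, which was the lowest ratio of its group. Endothelial markers fell or were not called, with 4 of 9 lower and none higher, from -1.70 for *Kdr* (VEGF receptor 2) to -0.50 for *Cldn5* (a tight junction protein) among those that fell, and sums of 542 to 1022 CPM in sham and 400 to 657 CPM in the IZ. Relative to their sum, *Itga6* counts were 1.81-fold higher in the IZ, with 9 of 9 libraries above all sham libraries (exact permutation p = 8.23e-05, adjusted 2.47e-04). *Itga6* and *Itga7* showed no called relation in the IZ (r = -0.118, exact p = 0.736; rho = -0.533, exact p = 0.148).

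**Figure D3:**
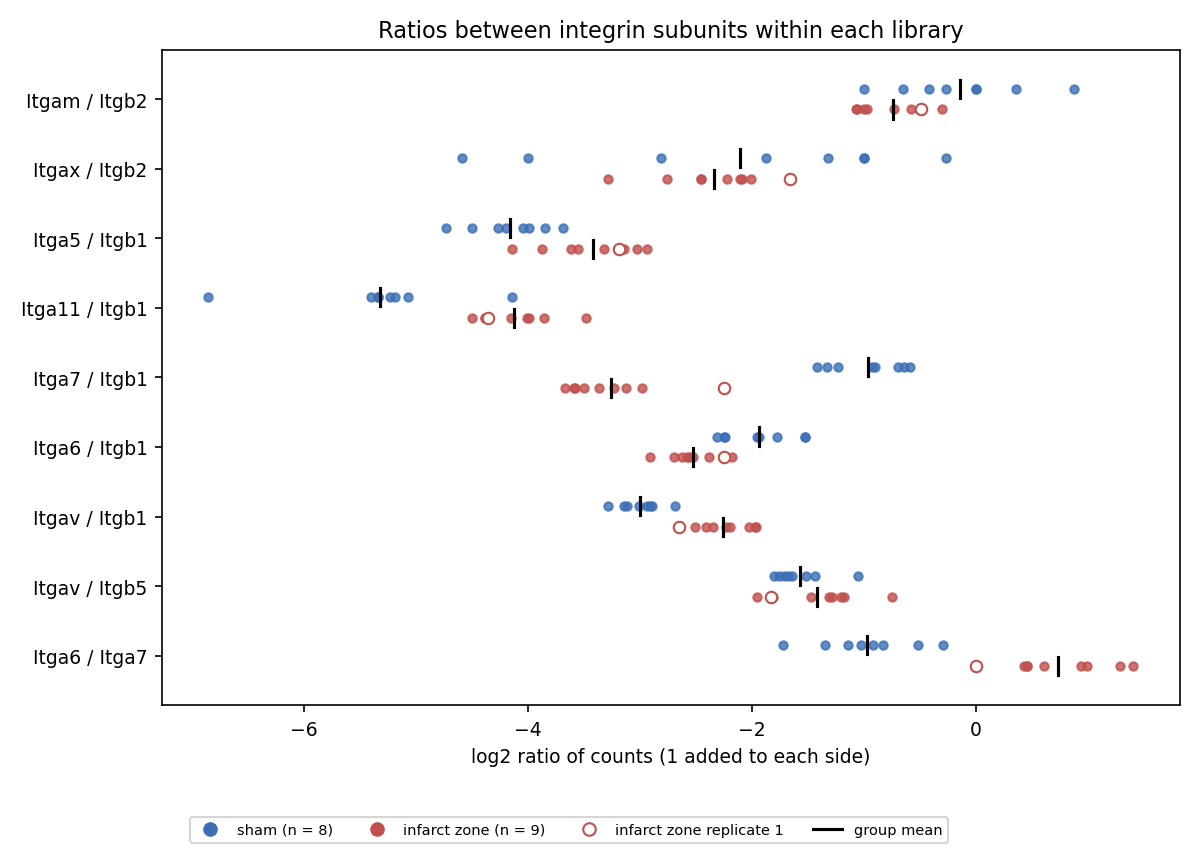
Log2 ratio of counts between pairs of integrin subunits within each library (1 added to each side), for 8 sham and 9 infarct zone libraries. Points are libraries, the open circle is IZ replicate 1 and black strokes are group means; the ratios of *Itga7* to *Itgb1*, *Itgav* to *Itgb1* and *Itga6* to *Itga7* do not overlap between the groups, while *Itgav* to *Itgb5* does.

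The choice of scaling bears on all of these levels. With libraries scaled by total counts alone, the median log2 fold change of all genes moved from 0.05 to 1.14 and the share of higher genes among the called rose from 52.3 to 85.8%. The 9 higher subunits stayed higher and *Itga7* stayed lower under that scaling, but *Itga7* fell by only 0.27 (edgeR adjusted p = 0.0481) and *Itga6* rose by 1.43. The ratios between subunits above are the same under any scaling.

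Of the 16 other integrin subunits in the table, 7 passed the filter. *Itgb7*, *Itgb3* and *Itga4* were higher. *Itga4*, whose product pairs with β1 or β7 and binds VCAM-1 and fibronectin, went from 1.47 to 6.11 CPM in sham to 14.1 to 21.2 CPM in the IZ (log2 fold change 2.45 ± 0.21). *Itgb7* rose by 3.0 ± 0.34 on the log2 scale, from at most 2.21 CPM in sham to 4.71 to 13.7 CPM in the IZ. *Itgb3*, the partner of αv and of platelet αIIb, rose by 2.74 ± 0.35, from 0.385 to 3.39 CPM in sham to 5.68 to 19.6 CPM in the IZ. For these 3 subunits the groups did not overlap. All 3 passed the filter only through the IZ, so their direction is not a result. *Itgb7* and *Itgb3* had at most 5 counts per sham library and *Itga4* at most 11. Of 7 platelet markers 2 were tested. *Pf4* (platelet factor 4), which made up most of the sum of the list (27.2 to 52.9 CPM in sham and 46.7 to 356 CPM in the IZ), went from a mean of 31.6 to 144 CPM, while *Gp1ba* (glycoprotein Ib), too low to be tested, went from 2.62 to 0.324 CPM, with 7 of 9 IZ libraries below all sham libraries. The part of platelets in the *Itgb3* result was not tested.

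*Itgb6*, whose product αvβ6 activates latent TGF-β and is known from epithelium, was the subunit with the largest fall. It ranged from 8.71 to 20.7 CPM in sham and from 0 to 3.99 CPM in the IZ, without overlap (log2 fold change -3.13 ± 0.32, edgeR adjusted p = 1.14e-08). With 0 to 13 counts per IZ library, *Itgb6* passed the filter only through the sham libraries. *Itga1*, a collagen receptor, *Itga9*, a receptor for tenascin and VCAM-1, and *Itgb4*, the α6 partner of hemidesmosomes, were not called, at -0.12 ± 0.15, -0.03 ± 0.13 and -0.12 ± 0.30 on the log2 scale. With total counts alone they were higher by 0.94 to 1.05.

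The remaining 9 subunits were too low to be tested. *Itgal*, the α chain of the lymphocyte integrin LFA-1, had at most 3 counts in each sham library and 2 to 40 in the IZ, at least 1.95-fold higher when each sham library is set at 3 counts. *Itgae* had at most 1 count in sham and up to 10 in the IZ, and its mean in the IZ was below that floor. *Itgad*, the gene that follows *Itgax* after 3718 bases, had 3 counts over all sham libraries and none in the IZ, so a change was not detectable at this depth. *Itga2*, *Itga2b*, *Itga3*, *Itga8*, *Itga10* and *Itgb8* reached no more than 30 counts per sham library and 40 per IZ library, and none separated the groups.

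**Figure D4:**
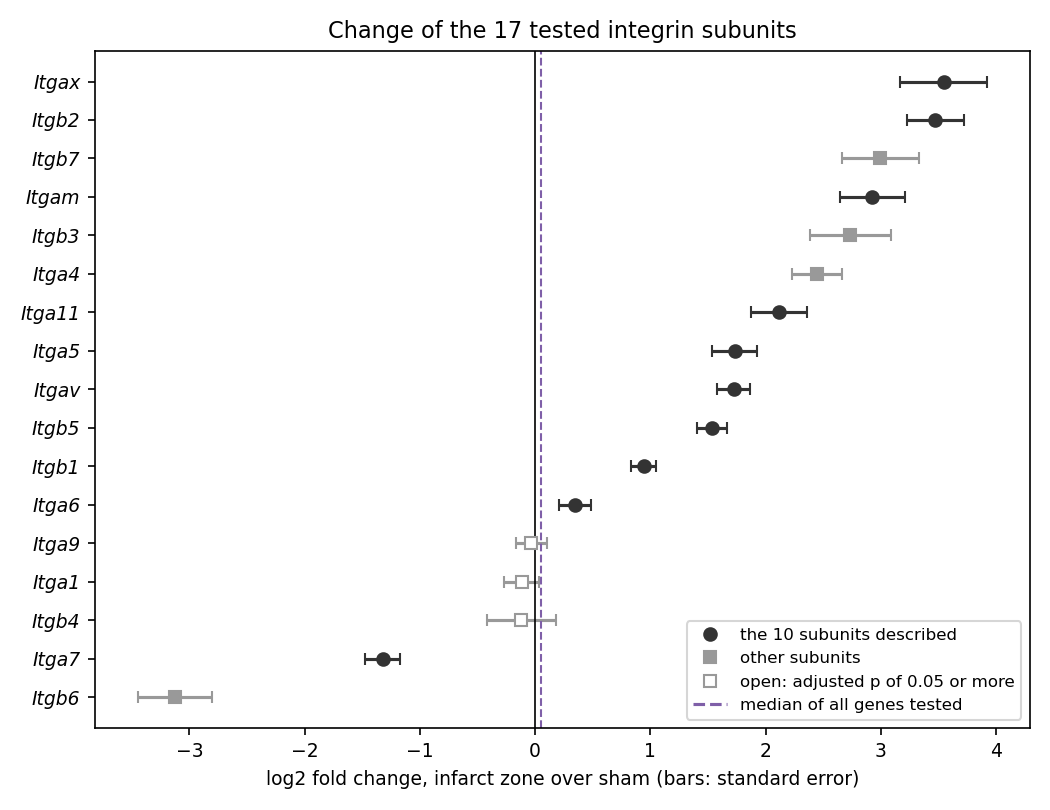
Log2 fold change of the IZ over sham for the 17 integrin subunits that were tested, with standard errors from edgeR as bars. The 10 subunits described are circles and the others squares, open squares were not called, and the dashed line marks the median of all genes, 0.05. *Itgax* and *Itgb2* lie highest, and *Itga7* and *Itgb6* are the only ones called lower.

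Of the RGD and matricellular ligands, 12 of 14 tested were higher and 2 lower, with a median log2 fold change of 2.85. *Spp1* (osteopontin) rose most, from 23.5 ± 11.6 CPM in sham to 1020 ± 392 CPM in the IZ (5.45 ± 0.45 on the log2 scale), followed by *Tnc* (tenascin C), a glycoprotein of healing tissue (4.45 ± 0.31). *Fn1* (fibronectin), the ligand of α5β1, went from 103 ± 38.8 to 1962 ± 430 CPM (4.25 ± 0.23). *Postn* (periostin), a ligand of αvβ5, went from 131 ± 47.9 to 2014 ± 637 CPM (3.95 ± 0.25). The 2 that fell were *Vtn* (vitronectin, -1.41 ± 0.34) and *Ltbp1*, which binds latent TGF-β (-0.36 ± 0.15). The log2 fold changes of *Fn1* and *Postn* were thus larger than those of *Itga5*, *Itgav* and *Itgb5*, which ranged from 1.54 to 1.73, though the difference between these changes was not tested.

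All 9 tested collagen genes were higher, with a median of 3.42, or 3.31 with *Col2a1* at its bound. *Col1a1*, the main collagen of scar, rose by 4.0 ± 0.24 on the log2 scale, and the basement membrane collagens *Col4a2* and *Col4a1* rose least, by 1.19 ± 0.15 and 1.45 ± 0.14. *Col2a1*, the collagen of cartilage, had 0 to 2 counts per sham library and 7 to 64 per IZ library, at least 4.0-fold higher against a floor of 3 counts per library. It passed the filter only through the IZ, so its direction is not a result.

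Of the laminins, ligands of α7β1 and of the α6 integrins, 8 were tested. Of these, 3 were higher, 3 lower and 2 not called, with a median of -0.06, shares near those of all tested genes (36.3% higher and 33.1% lower). *Lama4* and *Lamb1*, chains of vascular laminin, rose by 1.02 ± 0.13 and 0.94 ± 0.10. *Lamb3*, a chain of epithelial laminin, and *Lama5*, an α chain of endothelial and epithelial basement membranes, fell by 3.17 ± 0.42 and 1.70 ± 0.19. With 0 to 12 counts per IZ library, *Lamb3* passed the filter only through the sham libraries. *Lama2*, the α chain of muscle laminin, was 61.7 ± 9.32 CPM in sham and 47.3 ± 17.8 CPM in the IZ and was not called (edgeR adjusted p = 0.0664).

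Ligands of the leukocyte integrins gave the same counts, with 3 higher, 3 lower and 2 not called of 8 tested and a median of -0.13, again near the shares of all tested genes. *Thy1*, a surface glycoprotein that Mac-1 and αv integrins can bind, rose by 2.42 ± 0.14. *Icam1*, the endothelial counter-receptor of Mac-1, rose by 1.25 ± 0.20, from 9.97 ± 3.45 to 23.0 ± 5.29 CPM. *Vcam1*, the counter-receptor of the α4 integrins, fell by 1.05 ± 0.29, from 235 ± 119 to 114 ± 21.2 CPM, with overlap between the groups, and *Jam2*, a junctional adhesion molecule, fell by 0.86 ± 0.10.

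Of 15 tested genes for proteins that activate integrins from inside the cell, 7 were higher, 5 lower and 3 not called, with a median of 0.11, beside 36.3% higher and 33.1% lower over all tested genes. *Fermt3*, the kindlin of blood cells, rose by 2.93 ± 0.22, and *Apbb1ip* (RIAM), which brings talin to the membrane of leukocytes, by 2.42 ± 0.18. Both passed the filter only through the IZ, with at most 15 and 17 counts per sham library, so their direction is not a result. *Tln1*, the talin found in most cells, rose by 1.01 ± 0.10, while *Tln2*, the talin enriched in muscle, fell by 0.36 ± 0.13. *Fermt2*, the kindlin of most adherent cells, fell by 0.97 ± 0.13 and *Flnc*, the filamin of muscle, by 1.08 ± 0.18. *Itgb1bp2* (melusin), a muscle protein that binds the β1 tail, fell most, from 273 ± 72.2 to 23.2 ± 21.4 CPM (-3.57 ± 0.33).

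Of 17 genes of the focal adhesion linkage, 12 were higher and 5 lower, with a median of 0.85. *Actn1*, an actin crosslinker, rose by 2.90 ± 0.15, and *Ilk* (integrin-linked kinase), which binds the β1 tail, by 0.85 ± 0.12. *Parvg*, the parvin of blood cells, had 0 to 2 counts per sham library and was at least 5.24-fold higher. It passed the filter only through the IZ, so its direction is not a result. *Lims2* (PINCH2) and *Tns1* (tensin) fell by 2.29 ± 0.22 and 1.53 ± 0.15. Among kinases and adaptors that signal from integrins, 9 of 11 were higher and none was lower, with a median of 1.47. *Fgr*, a Src family kinase of myeloid cells, rose by 3.77 ± 0.53 and *Ptk2b* (PYK2) by 2.69 ± 0.21. Both passed the filter only through the IZ, with at most 5 and 10 counts per sham library, so their direction is not a result. *Ptk2* (focal adhesion kinase) rose by 0.36 ± 0.13 and *Bcar1*, its docking protein, by 0.41. Of 10 membrane partners, 6 were higher, 3 lower and 1 not called, with a median of 0.83. *Plaur*, the urokinase receptor, rose by 2.58 ± 0.34 and *Tspan4*, a tetraspanin, by 1.33 ± 0.17, whereas *Bsg* (basigin) fell by 1.47 ± 0.15 and *Cav1* (caveolin 1) by 0.72 ± 0.14. *Plaur*, with 0 to 10 counts per sham library, also passed the filter only through the IZ.

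**Figure D5:**
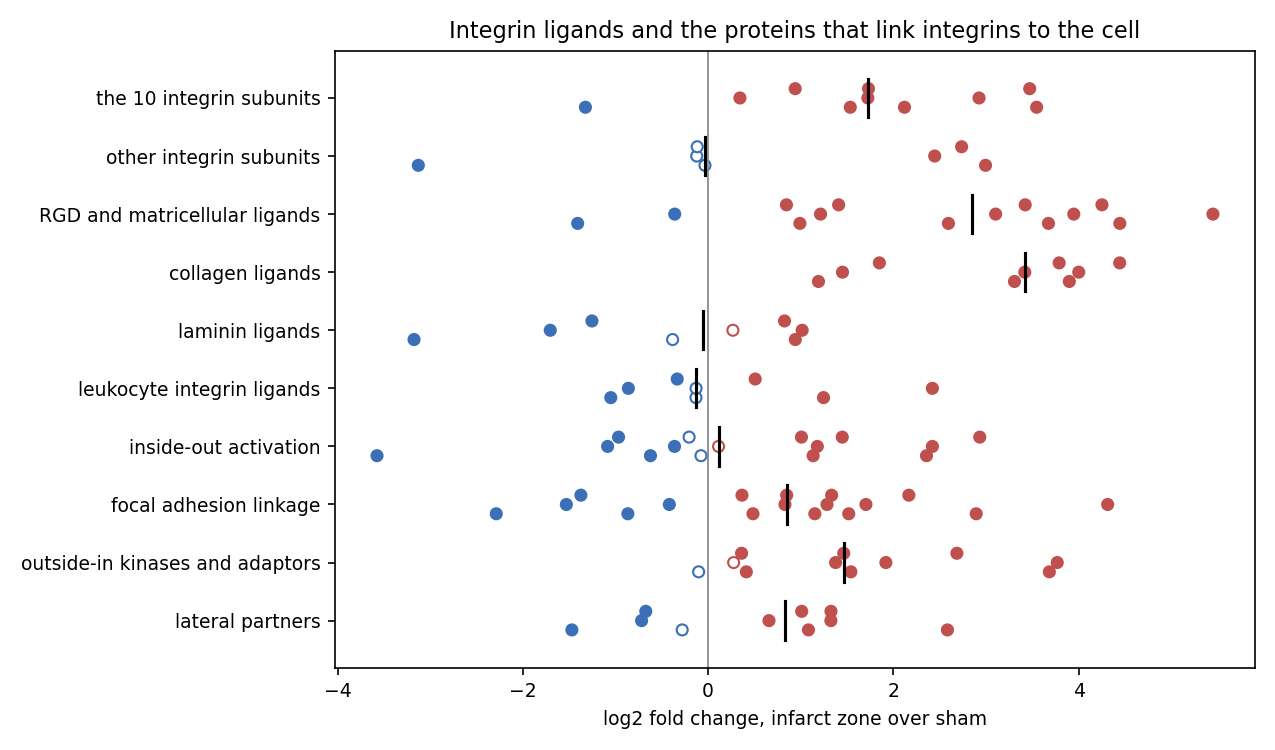
Log2 fold change of the IZ over sham for each tested gene of the integrin lists, 1 row per list. Filled points passed the test (red higher, blue lower), open points did not, and black strokes are list medians; collagens and RGD ligands lie far to the right, with medians of 3.42 and 2.85, while laminins and leukocyte ligands scatter around 0.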

How the data were processed

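RNA from 8 sham LV samples and 9 IZ samples, each from 1 mouse, was sequenced by massive analysis of cDNA ends with molecular identifiers that removed PCR duplicates. The authors trimmed the reads with Cutadapt and, per the labels and the submitters' processing notes, used bcl2fastq, Bowtie2, HTSeq and DESeq2 with the genome build mm10. The annotation release is not given in the sources used here. The deposited values are raw counts per gene, without normalization. *Itgam* was counted in 1 of 35 merged features. Gene positions came from GENCODE M21 (GRCm38), which matched 31556 of 31647 features, and 217 of 219 listed genes had a feature; the others, *Fga* and *Fermt1*, were not analysed here.

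The quasi-likelihood F-test of edgeR 4.0.16 (R 4.3.3) was applied to the counts of all genes (filterByExpr with its default minimum of 10 counts, TMM, two-sided, no covariate), with Benjamini-Hochberg adjustment and a threshold of 0.05. Genes low in 1 group could pass this filter through the other group alone, which favoured their direction in advance. This holds for genes of every list, whether or not it is said there. Standard errors were derived from the F statistic. Ratios within a library used counts plus 1; group means were compared by exact permutation (two-sided) over 24310 splits, with adjustment over 15 ratios. Relations in the IZ used log2 CPM and all 362880 pairings, with adjustment over 6. Rises from a group with at most 3 counts in every library were given as bounds against 3 counts per library, on average 1.79 CPM in sham, which cover counting error only. Library pairs differed by 2.41 to 252 times sampling variance (chi-square per degree of freedom), so none was a copy. No batch was named in the labels.

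Named genes were the 10 members, the other subunits, and of each list the 2 highest and 2 lowest called genes (1 each for marker lists) with known ligands and adaptors; the results of 2 genes that met the rule are not reported here. The members, lists, ratios and relations were chosen with earlier results of these data known. As alternatives, libraries were scaled by upper quartiles, by total counts alone or by DESeq2 size factors, genes were tested by DESeq2 1.42.0 (Wald test), and the fit was repeated without the filter, on libraries thinned to equal depth, without mitochondrially encoded features, with replicate numbers as a block and without each library in turn. Ratios and relations were repeated with a prior count of 5, medians and, for relations, total count CPM and the omission of the 2 farthest libraries. The scripts were tested on simulated data. Python 3.11.15, NumPy 2.4.6, pandas 2.3.3, SciPy 1.17.1, Matplotlib 3.10.9 and BLAST 2.17.0 were used for the other steps. BLAST of the last bases of each transcript found near-identical copies for 1 non-coding transcript end each of *Itga6* and *Itgb5*, whose counts could be split. The *Itga6* copies *Gm47547*, *Gm47101*, *Gm8113* and *Gm48116* held 316, 177, 65 and 25 counts over all sham libraries. Over the IZ libraries they held 35, 22, 33 and 7. *Itga6* itself had 849 counts in sham and 2544 in the IZ. The *Itgb5* copy held 0 and 1. Whether reads of *Itga6* were counted in its copies was not tested.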

Additional observations from a re-analysis of the deposited data

Results flagged for a closer look

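Of 50 groups of values examined for a single library far from the rest (Dixon's ratio at the 95% level), 5 were set aside, and chance alone sets aside about 1 group in 20. In IZ replicate 1, *Itgb2* was lowest at 22.5 CPM, against 61.4 to 86.5 CPM in the other IZ libraries. In the same library *Itga7* was highest at 82.3 CPM, against 35.6 to 53.1 CPM, and so was the log2 ratio of *Itga7* to *Itgb1*, at -2.25 against -3.67 to -2.98. This library also had the highest levels of mitochondrial transcripts and cardiomyocyte markers and the lowest sum of macrophage markers in its group; the part of these in its integrin values was not tested. In IZ replicate 6, *Itgb5* was highest at 348.6 CPM, against 197 to 271 CPM in the others. In sham replicate 8, which held 2 counts of *Itga11*, the log2 ratio of *Itga11* to *Itgb1* was lowest at -6.85, against -5.40 to -4.14.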

How the results depend on the processing

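The 10 subunits gave 9 or 10 calls under all 25 alternatives, and over all genes 7136 to 10727 were called, against 8544. Apart from *Itga6* (0.26 to 0.42 when single libraries were left out), the calls of the 10 kept their direction and side of the threshold under all of them. Shared replicate numbers did not pair the libraries: the correlations of same-numbered libraries were -0.23 to 0.13, and only number 8 correlated best with its own. With the number as a replicate block 8079 genes and all 10 subunits were called, and the ratio of *Itgam* to *Itgb2* (-0.575) was no longer called. Thinning also ended that call (-0.408). Called differences appeared for *Itgax* to *Itgb2* with a prior count of 5 (-1.06), and for *Itgam* and *Itgax* to macrophage markers with a prior count of 5 (-0.879 and -1.32) and with thinning (-0.573 and -0.993), where *Itgb2* to these markers turned to -0.264 and -0.165. The relation of *Itgam* and *Itgb2* lost its call without the 2 farthest libraries (0.795).

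Changes that were not called turned in sign. *Itga9* gave 0.0777 with upper quartile scaling, 1.05 with total counts alone, 0.0245 without the filter, 0.0793 with thinning and 0.0107 with the replicate block; *Itga1* and *Itgb4* gave 0.945 and 0.940 with total counts alone. When single libraries were left out, *Itga9* ran from -0.12 to 0.0144, *Itgb4* from -0.21 to 0.0116, *Itgax* to *Itgb2* from -0.58 to 0.0342 and *Itgax* to macrophage markers from -0.30 to 0.171. The relation of *Itgax* and *Itgb2* ran from -0.292 to 0.846, *Itga11* and *Itgb1* from -0.0230 to 0.544, *Itgav* and *Itgb5* from -0.127 to 0.349, and *Itga6* and *Itga7* from -0.511 to 0.0986. The cause of these shifts was not tested. Depth limits *Itgax*, with at most 4 counts in a sham library, and the 9 untested subunits.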

Other observations

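Markers of rarer cells that carry integrins were near the limit of detection. None of 9 T and NK cell markers was tested, and their sums were 0 to 5.15 CPM in sham and 5.97 to 23.8 CPM in the IZ. These cells are known for *Itgal* and *Itgae*, which were also too low to test. Of 8 dendritic cell markers, which bear on *Itgax*, only *Zbtb46* was tested. It was lower (-0.81 on the log2 scale) and made up most of the sum in sham, which was 11.1 to 31.9 CPM in sham and 18.2 to 28.3 CPM in the IZ. Of the untested ones, *Ccr7* lay above all sham libraries in 9 of 9 IZ libraries (mean 0.205 and 3.59 CPM), *Flt3* and *Xcr1* in 8, and *Cd209a* and *Batf3* in 7. *Siglech* did so in 1 and *Clec9a* in 0. These untested markers held at most 6 counts in any sham library, so the counts of libraries are near the floor. Among tested genes, every IZ library lay above every sham library for 16.6%. Of 4 B cell markers, only *Cd79b* was tested (2.25), with 0 to 4 counts per sham library and 5 to 70 per IZ library. It passed the filter only through the IZ, so its direction is not a result. The list summed to 0.518 to 2.78 CPM in sham and 3.26 to 15.9 CPM in the IZ. In the neutrophil list *Csf3r*, the receptor for granulocyte colony-stimulating factor, had 0 to 3 counts per sham library and was at least 11.3-fold higher in the IZ, as was the platelet marker *Gp1bb* by at least 2.56-fold. Both also passed the filter only through the IZ, so their direction is not a result.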
